A study of Mus musculus with 20 samples.

Results

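Expression of 57180 gene identifiers was compared between the paraventricular thalamic nucleus (PVT) and the posterior insular cortex (pIC) of mice with painful diabetic neuropathy. The comparison took the 12 libraries whose labels gave streptozotocin (STZ), 6 from each region, out of 20 in the series. STZ is a toxin taken up by the insulin-producing beta cells of the pancreas, and these mice had 1 intraperitoneal injection of 200 mg/kg. The other 8 libraries, 4 from each region, came from mice that received vehicle and served as the reference for the same regional comparison. All tissue was taken at week 7, as punches microdissected from fresh brains, and sequenced as poly(A)-selected, stranded libraries. The labels name no allele, transgene or pooled animals, and give neither strain, sex nor age. Nor do they say that equally numbered PVT and pIC libraries come from the same mouse or that the libraries of a group come from separate mice, so p-values measure the spread between these libraries only.

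The PVT is a midline nucleus of the dorsal thalamus that lies just under the dorsal part of the third ventricle, beside the habenula and above the hypothalamus. Its neurons use glutamate, load their vesicles through the transporter encoded by Slc17a6 and receive many peptide signals from hypothalamus and brainstem. The pIC is layered cortex in which most excitatory neurons use the transporter encoded by Slc17a7, alongside inhibitory interneurons, and it lies lateral to the claustrum and striatum. In a punch of mixed tissue, fewer cells of a type and less RNA per cell cannot be told apart.

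The libraries were read as CPM, the counts of a gene scaled to equal library size, with total counts of 21.7 M to 25.3 M in PVT and 19 M to 25.5 M in pIC, and mitochondrially encoded genes took 5.57% to 6.75% of them. Punch content varied. A list score, the mean log2 CPM of the members of a marker list, ran for thalamic neurons from 4.24 to 6.72 in PVT and from 2.98 to 3.56 in pIC. PVT libraries 1, 2 and 3 had the lowest thalamic scores (4.26, 4.24 and 4.58), and libraries 5 and 6 the highest (6.72 and 6.2). The score of striatal projection neurons was 7.35, 5.89 and 6.98 in PVT libraries 1, 2 and 3 and 4, 5.56 and 5.45 in the other 3, and in pIC it reached 7.27 in library 3 against 3.63 to 5.75 in the other 5. For lists whose counts or medians moved most without PVT libraries 1, 2 and 3 (3 PVT against 6 pIC libraries), those values are given beside the main ones.

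**Figure D1:**
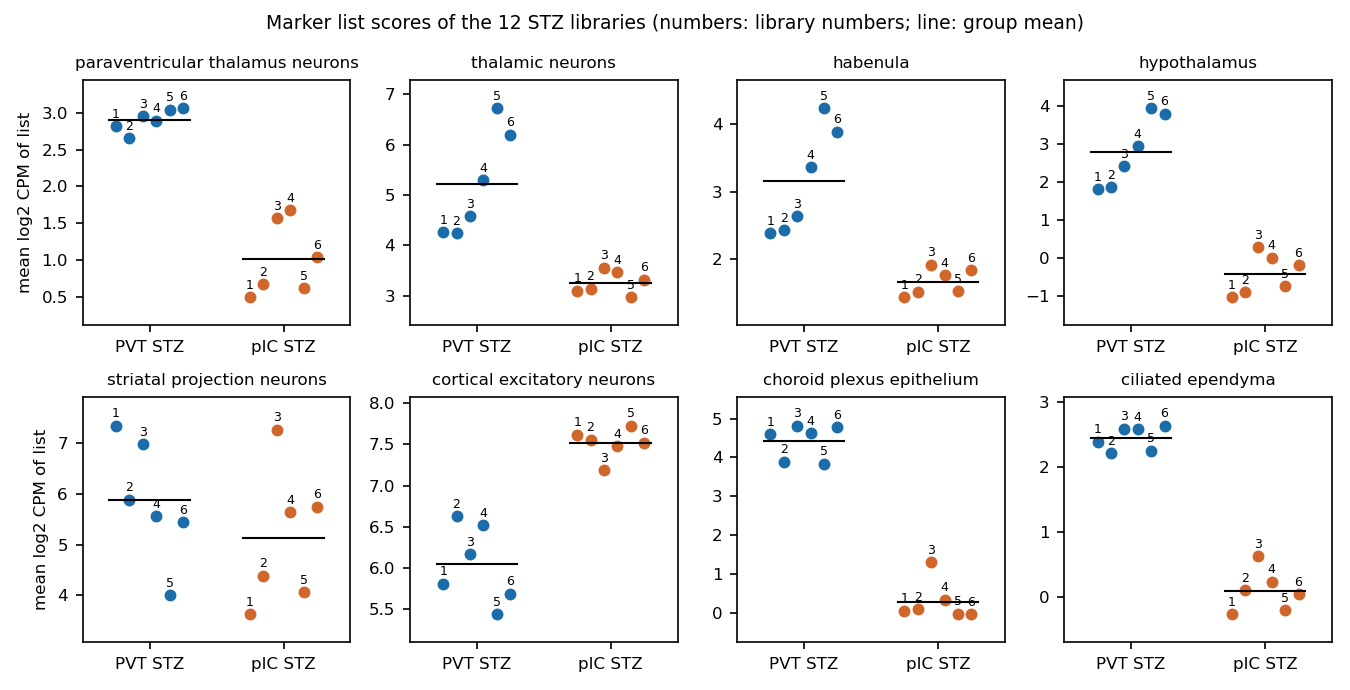
Mean log2 CPM of 8 marker lists (y axis) in each of the 6 PVT and 6 pIC libraries of STZ mice (points with library numbers, lines at group means). The striatal score spans 4 to 7.35 and the thalamic score 4.24 to 6.72 among PVT libraries, the PVT neuron score spans 2.65 to 3.06 there, and the choroid plexus and ependyma scores of all PVT libraries lie above those of all pIC libraries.

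Of 16489 genes with enough counts to test, 4280 (26%) were higher and 3809 (23.1%) lower in PVT at an adjusted p under 0.05 (edgeR quasi-likelihood test). Counts of list members given below are to be read against these shares. The median log2 fold change was 0.57 among the higher and −0.39 among the lower genes, and 0.0225 over all genes tested. Large differences lay mainly on the PVT side, with 1103 higher and 503 lower genes at an estimated fold of 2 or more, and 226 and 9 at 8 or more. Genes tested for more than a 2-fold difference passed in 511 cases (3.1%) upward and 83 (0.503%) downward. In 2440 of the higher and 2133 of the lower genes every PVT library lay beyond every pIC library, as did 14.8% and 12.9% of all genes tested in the 2 directions. Without PVT libraries 1, 2 and 3 the lower genes past a 2-fold difference numbered 201, and without PVT library 2 alone or pIC library 5 alone they numbered 163 and 55.

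Transcription factors that pattern the forebrain separated the regions. Of 43 listed, 36 were tested, and 20 were higher and 8 lower in PVT (median log2 fold change 1.01). Zic1, Zic2, Zic4 and Zic5, zinc-finger factors of the dorsal midline and thalamus, were higher, and none of these 4 had overlapping libraries. Zic1 (ENSMUSG00000032368) stood at 151, 189.5 and 250.3 CPM (lowest, median and highest library) in PVT and at 9.57, 11.8 and 33.1 CPM in pIC, a log2 fold change of 3.63 (SE 0.297, adjusted p = 3.38e-06). Zic4 was at 16.4, 19.2 and 24.9 CPM in PVT and 1.54, 1.92 and 3.12 CPM in pIC (log2 3.29, SE 0.157, adjusted p = 1.18e-07). The log2 fold changes of Zic2 and Zic5 were 2.28 and 2.48, and unlike the thalamic score the Zic1 level did not separate PVT libraries 1, 2 and 3 from the rest.

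Thalamic neuron genes were higher in PVT for 13 of 16 tested members of 17 listed, with none lower (median 2.24). Tcf7l2 (ENSMUSG00000024985), a transcription factor that maintains thalamic neuron identity, was at 7.98, 7.1, 20.6, 42.9, 159.9 and 90.8 CPM in PVT libraries 1 to 6 and at 2.78, 3.2 and 4.37 CPM (lowest, median, highest) in pIC. All PVT libraries were above all pIC libraries, though libraries 1 and 2 by little (log2 4.04, SE 0.777, adjusted p = 0.00108). Slc17a6, the vesicular glutamate transporter of thalamic relay neurons, was at 24.4, 41, 47.1, 115, 313 and 207 CPM in PVT libraries 1 to 6 and at 12.9, 18.7 and 24.9 CPM in pIC. Library 1 fell within the pIC range (log2 2.69, SE 0.582, adjusted p = 0.00237). Gbx2, a homeobox factor of developing thalamus, had a log2 fold change of 4.64 (adjusted p = 0.00213), with pIC library 3 (1.25 CPM) above PVT library 2 (0.989 CPM). Its estimate ran from 3.93 to 6.62 over the alternatives, and it was called in each. These 3 genes were picked after their values were seen. Prkcd, a protein kinase C of thalamic neurons, was at 53.7, 87.4 and 332 CPM in PVT and 7.42, 8.54 and 12.8 CPM in pIC (log2 3.98, SE 0.487, adjusted p = 4.65e-05), with no overlap. Patj, a scaffold of tight junctions that was on the thalamic list, was higher by 2.68 on the log2 scale (adjusted p = 3.99e-04). Without PVT libraries 1, 2 and 3, 16 of 17 tested thalamic genes were higher (median 3.25). Those libraries were picked for the lowest scores of this same list, so a rise was fixed in advance and is not further evidence.

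Genes listed for PVT neurons themselves were higher for 8 of 12 tested members of 13 listed, with none lower (median 1.57), and their score spread little among PVT libraries (2.65 to 3.06 against 0.5 to 1.68 in pIC). That score is a mean over genes, among them Drd2, which is also on the striatal list. Single members such as Calb2 spread more within PVT, so the score does not show that PVT neuron content was even. Calb2 (ENSMUSG00000003657), which encodes the calcium buffer calretinin of midline thalamus, was at 61.1, 115 and 324 CPM in PVT and 7.56, 8.51 and 22.1 CPM in pIC (log2 3.80, SE 0.463, adjusted p = 4.54e-05). Its lowest PVT library was library 1 and its highest pIC library was library 4. Npffr1, a receptor for RFamide peptides, was at 6.59, 8.64 and 11.2 CPM in PVT and 0.379, 0.974 and 1.51 CPM in pIC (log2 3.19, SE 0.237, adjusted p = 8.80e-07). Neither gene overlapped between the regions. Leaving out PVT libraries 1, 2 and 3, 6 of 12 were higher (median 1.38).

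**Figure D2:**
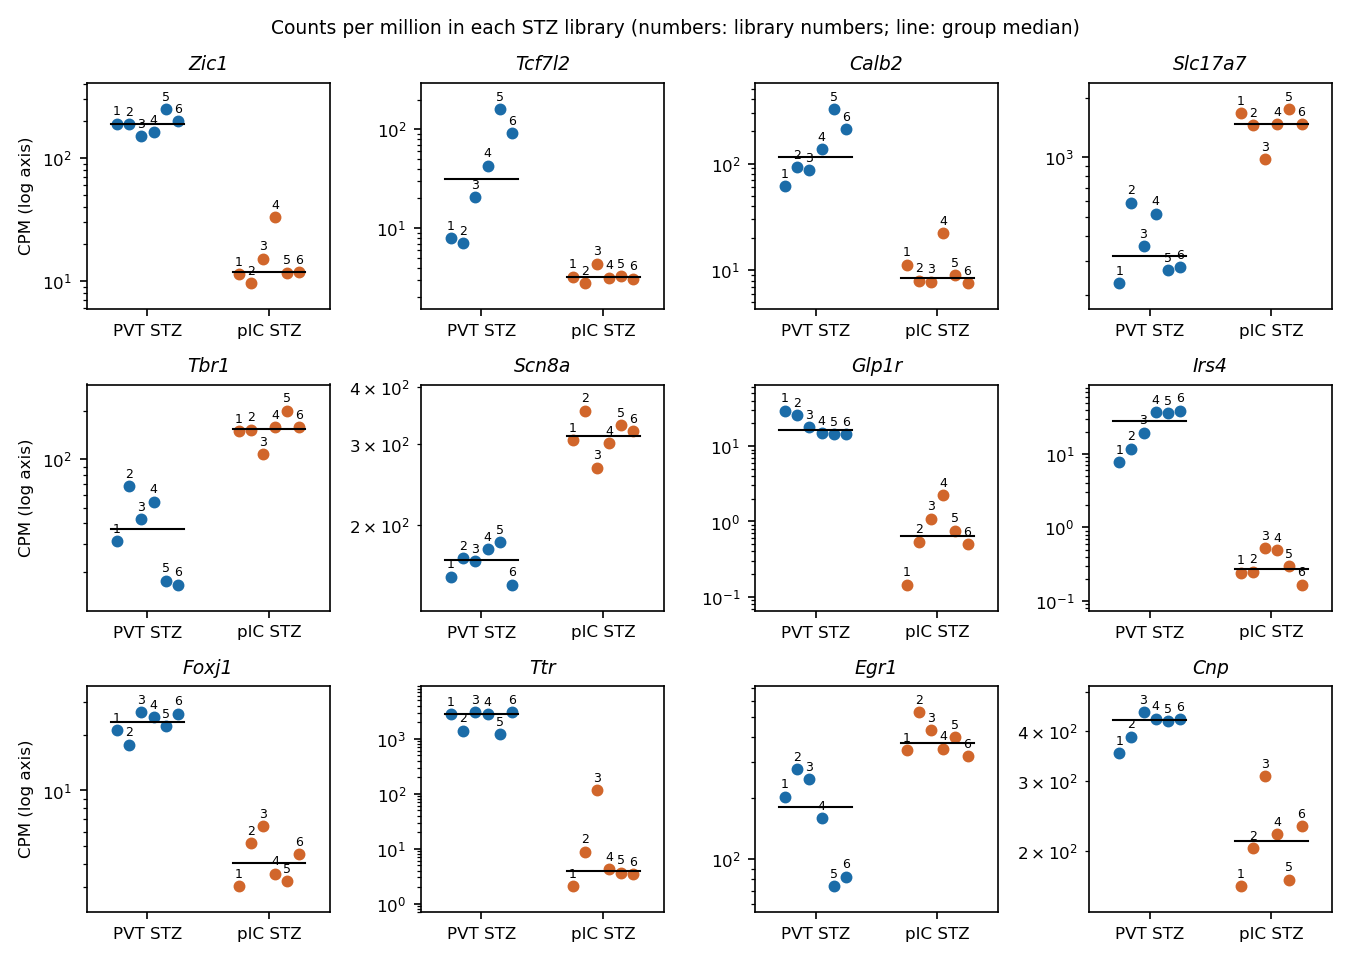
CPM (log y axis) of 12 genes in each PVT and pIC library of STZ mice (points with library numbers, lines at group medians). The 2 regions do not overlap for any of the 12 genes shown, Tcf7l2 spans 7.1 to 159.9 CPM within PVT, and Egr1 and Tbr1 are lowest in PVT libraries 5 and 6.

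Most tested genes listed for habenula, hypothalamus and hippocampus were also higher. Of 15 habenula genes 13 were tested and 10 were higher (median 1.88), of 20 hypothalamic genes 10 were tested and 9 were higher (median 3.53), and of 13 hippocampal genes 12 were tested and 10 were higher and 1 lower. Without PVT libraries 1, 2 and 3, 17 hypothalamic genes were tested and 15 were higher (median 6.48). Genes with enough counts in the remaining PVT libraries alone could then pass the count filter. The added genes may thus have entered through the libraries where they were high, and the medians cover different sets of genes. Pmch, which encodes melanin-concentrating hormone of the lateral hypothalamus, had the largest estimated fold change among the genes called in edgeR (log2 8.48, SE 2.14, adjusted p = 0.00594). Its estimate ran from 3.77 to 9.46 over the alternatives, and limma-voom with quality weights did not call it (adjusted p = 0.218). It was at 310.3 and 134.2 CPM in PVT libraries 5 and 6, at 3.79 CPM in library 4 and at 0.455 to 0.584 CPM in libraries 1, 2 and 3, against 0.0829 to 0.386 CPM in pIC. Magel2, an imprinted gene of hypothalamic neurons, was at 11.5, 14.4 and 22.4 CPM in PVT and 0.332, 0.55 and 1.9 CPM in pIC (log2 4.41, SE 0.352, adjusted p = 2.05e-06). Hdc, the histamine-synthesizing enzyme, was at 3.55, 4.51 and 6.44 CPM in PVT and 0.126, 0.452 and 1.38 CPM in pIC (log2 3.04, adjusted p = 2.75e-05). Ngb, neuroglobin, an oxygen-binding protein with strong expression in habenula and hypothalamus, was at 19.2, 25.7 and 34.1 CPM in PVT and 1.88, 2.01 and 2.68 CPM in pIC (log2 3.62, SE 0.182, adjusted p = 1.30e-07) and was among the 12 higher genes with the smallest p. Nhlh2, a helix-loop-helix factor of habenula, was at 0.838, 3.65 and 15.1 CPM in PVT and 0.29, 0.383 and 0.445 CPM in pIC (log2 3.94, adjusted p = 0.00173). C1ql2, a secreted protein of dentate granule cells, was at 2.63, 16.1 and 25.6 CPM in PVT and 0.193, 0.304 and 0.607 CPM in pIC (log2 5.32, adjusted p = 9.81e-05), and C1ql3 of the same family was the hippocampal gene that was lower (log2 −1.19, adjusted p = 0.00262). Of 8 pituitary genes 1 was tested and did not pass (log2 0.57), but it was called higher without PVT libraries 1, 2 and 3 (log2 0.96) and with the replicate number as a block. Lhx5 and Lhx1, LIM homeobox factors of the diencephalon, had 396 and 310 counts over the 6 PVT libraries and 1 count each over the 6 pIC libraries, ratios of 385 (95% counting interval 68.6 to 15200) and 301 (53.7 to 11900) per library size, which cover counting error only. The part of tissue outside the PVT in these results was not tested.

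Most striatal projection neuron genes did not pass the test. Of 15 tested only Isl1, a LIM homeobox factor also found in septum and hypothalamus, was higher (log2 2.76, SE 0.673, adjusted p = 0.00493; 2 genes were higher without pIC library 3), and the list's median of 0.50 became −0.76 without PVT libraries 1, 2 and 3. Isl1 was at 10.5, 12.1 and 19.1 CPM in PVT and 0.0482, 1.02 and 6.4 CPM in pIC. The highest pIC value was in library 3, the pIC library with the highest striatal score.

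Excitatory cortical genes had the largest share of lower members among the 49 lists. Of 18 listed and tested, 15 were lower in PVT and none higher (median −1.30), and 10 had no overlap. Slc17a7 (ENSMUSG00000070570), the vesicular glutamate transporter of cortical neurons, was at 230.2, 316 and 588 CPM in PVT and 978, 1469 and 1753 CPM in pIC (log2 −1.97, SE 0.242, adjusted p = 4.43e-05). Camk2a, the calcium/calmodulin kinase of forebrain excitatory synapses, was at 1020, 1553 and 2138 CPM in PVT and 2474, 3399 and 3595 CPM in pIC (log2 −1.06, SE 0.153, adjusted p = 1.18e-04). Lingo1, a leucine-rich repeat protein of neurons, and Nptx1, neuronal pentraxin 1, had log2 fold changes of −1.42 and −1.27 (adjusted p = 2.07e-05 and 1.39e-05). Tbr1, a T-box factor of deep-layer neurons, was at 16.7, 37 and 68 CPM in PVT and 107, 155 and 199.8 CPM in pIC, with no overlap (log2 −2.0, SE 0.33, adjusted p = 3.81e-04). Emx1, a pallial homeobox factor, had a log2 fold change of −1.87 (adjusted p = 5.96e-04).

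Layer genes were mixed. Of 16 upper-layer genes 7 were lower and 2 higher, and of 20 deep-layer genes 9 were lower and 3 higher. Cux2, a homeobox factor of layers above the granular layer, was at 26.3, 31.6 and 40.9 CPM in PVT and 47.6, 74.5 and 93.1 CPM in pIC (log2 −1.13, SE 0.159, adjusted p = 1.05e-04), with no overlap. Cplx3, a complexin of subplate-derived neurons, was at 3.38, 5.69 and 10.01 CPM in PVT and 14.3, 19.2 and 20.5 CPM in pIC (log2 −1.60, adjusted p = 2.11e-04). Tshz2, a zinc-finger factor of some deep-layer neurons, went the other way, at 44.4, 61.3 and 83.2 CPM in PVT and 19, 21.6 and 24.8 CPM in pIC (log2 1.54, SE 0.14, adjusted p = 4.50e-06). Ntsr1, the neurotensin receptor that marks corticothalamic neurons, was higher as well, with overlapping libraries (log2 0.85, adjusted p = 0.00657). Among claustral and endopiriform genes 3 of 9 were lower and 2 higher, and Slc30a3, the zinc transporter of cortical synaptic vesicles, was lower with a log2 fold change of −2.08 (adjusted p = 1.90e-04).

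The 12 genes with the smallest p-values among the lower genes had no overlap between the regions. They were picked by p from these same libraries, so this separation is not further evidence. Over all genes tested, 12.9% had every PVT library below every pIC library. Rasl10a, a small GTPase of the Ras family, was at 6.18, 8.11 and 8.94 CPM in PVT and 23.5, 24.2 and 32.7 CPM in pIC (log2 −1.74, SE 0.108, adjusted p = 4.08e-07). Tuba8, an alpha-tubulin, had a log2 fold change of −1.50, Frzb, a secreted Wnt antagonist, of −1.93, and Ntng2, the netrin-G2 adhesion protein of claustral and cortical axons, of −1.60. Rab6b, a Golgi trafficking GTPase, was at 762, 793 and 837 CPM in PVT and 1115, 1182 and 1245 CPM in pIC (log2 −0.57, SE 0.0422, adjusted p = 8.76e-07), a difference of less than 2-fold. The others were Ociad2 (−0.84), Rgs7bp (−0.79), Camk1d (−0.73), Pcnx2 (−1.03), Scn8a (−0.91), Map3k10 (−0.54) and Sgtb (−0.77), each value a log2 fold change. Of the largest differences, Pkp1, a desmosomal plakophilin, had 3 counts over the PVT and 151 over the pIC libraries (pIC over PVT ratio 51.8, 95% counting interval 17.4 to 254). Cdsn, corneodesmosin, was at 0.0409, 0.14 and 0.282 CPM in PVT and 1.13, 1.93 and 2.36 CPM in pIC (log2 −3.48, SE 0.345, adjusted p = 6.49e-06). Myl4 and Tcap, genes known from striated muscle, had log2 fold changes of −3.12 and −2.90, Igfn1 of −2.68, and Cd6, a receptor of T cells, of −2.82 with overlapping libraries.

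Genes that make and load transmitters were higher in PVT for 12 of 20 tested members of 24 listed and lower for 6 (median 0.42). Gad2, the GABA-synthesizing enzyme of terminals, was at 394, 464 and 747 CPM in PVT and 144, 178 and 341 CPM in pIC (log2 1.32, SE 0.238, adjusted p = 6.92e-04). Slc18a2, the vesicular monoamine transporter, was higher by 0.82 and Ddc, which decarboxylates monoamine precursors, by 1.85 on the log2 scale (adjusted p = 7.25e-06 and 9.32e-05). Slc18a3, the vesicular acetylcholine transporter of habenular and basal forebrain neurons, was at 5.53, 7.78 and 8.83 CPM in PVT and 0.338, 1.21 and 4.9 CPM in pIC, without overlap although library 3 of pIC came near (log2 2.16, adjusted p = 0.00213).

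Interneuron genes split, with 13 of 30 higher and 8 lower, and 8 higher and 9 lower without PVT libraries 1, 2 and 3. Cck, the peptide cholecystokinin of cortical cells, was lower, at 55.2, 110.3 and 172 CPM in PVT and 208, 349 and 450.0 CPM in pIC (log2 −1.58, SE 0.261, adjusted p = 3.72e-04). Dlx1, a homeobox factor of GABAergic lineages, was higher (log2 1.08, adjusted p = 2.68e-05), as was Sncg, gamma-synuclein (log2 2.99, adjusted p = 3.35e-06).

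Channel genes that carry neuronal currents were more often lower than higher in PVT. Potassium channels pass the outward currents that set the resting potential and end spikes, and 34 of 68 were lower and 9 higher (median −0.41). Kcnh7, an ether-a-go-go related channel, was at 23.4, 31.5 and 48.6 CPM in PVT and 92.2, 124 and 139 CPM in pIC (log2 −1.85, SE 0.175, adjusted p = 7.06e-06). The regions did not overlap for it. Kcns1, a silent subunit that modifies delayed rectifiers, was lower (log2 −1.84, adjusted p = 1.18e-05). Kcnj5, a G-protein-gated inward rectifier, was the opposite case, at 3.01, 5.17 and 13.1 CPM in PVT and 0.126, 0.283 and 0.931 CPM in pIC (log2 3.88, SE 0.507, adjusted p = 6.09e-05).

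Among sodium channel genes 7 of 13 were lower and 4 higher. Scn8a (ENSMUSG00000023033), the Nav1.6 channel of axon initial segments, was at 148, 168 and 184 CPM in PVT and 267, 313 and 356 CPM in pIC (log2 −0.91, SE 0.0713, adjusted p = 1.29e-06). Scn9a, the Nav1.7 channel best known from pain-sensing neurons and also found in hypothalamus, was at 4.27, 7.81 and 13.5 CPM in PVT and 0.166, 0.462 and 1.12 CPM in pIC (log2 3.78, SE 0.424, adjusted p = 2.07e-05), with no overlap. Scn2a, the Nav1.2 channel, was lower (log2 −0.47, adjusted p = 1.10e-05). High-voltage calcium channel genes were lower for 10 of 17 and higher for 3. Cacna2d1, the subunit that binds gabapentinoid drugs, was at 102, 107 and 126 CPM in PVT and 167, 218 and 233 CPM in pIC (log2 −0.93, SE 0.082, adjusted p = 2.92e-06), while the related Cacna2d2 was higher (log2 1.62, adjusted p = 2.58e-05). Cacng5, a gamma subunit of the family that also traffics AMPA receptors, was at 34.1, 40.6 and 43.1 CPM in PVT and 5.01, 6.74 and 14.9 CPM in pIC (log2 2.22, SE 0.236, adjusted p = 1.59e-05). Cacnb3, a beta subunit, and Cacna1a, the pore of P/Q-type channels, were lower (log2 −1.21 and −0.65, adjusted p = 1.82e-06 and 3.93e-06). Of the 8 T-type calcium and HCN genes, which shape thalamic burst firing, 3 were lower, among them Cacna1i (log2 −0.81), and 2 higher, Hcn3 (0.83) and Hcn4 (1.99). Hcn4 was at 5.53, 9.98 and 39.5 CPM in PVT and 1.93, 4.46 and 5.6 CPM in pIC, with overlapping libraries.

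**Figure D3:**
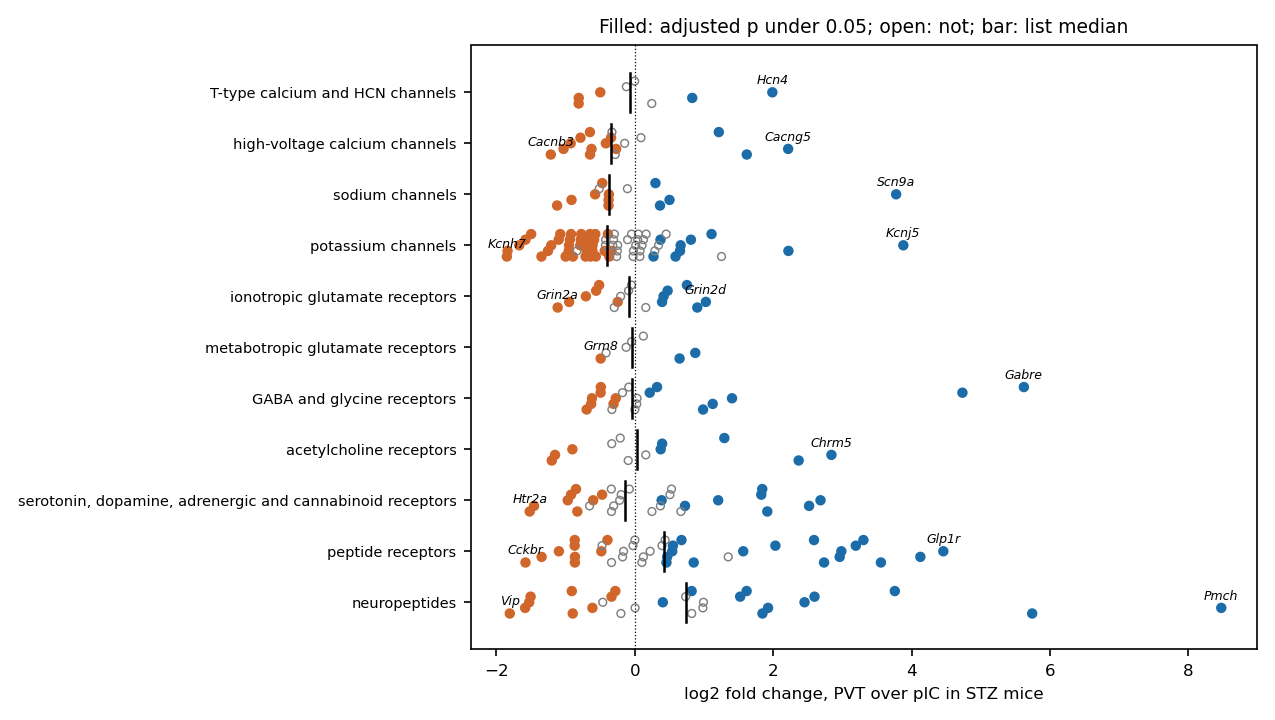
Log2 fold change of PVT over pIC in STZ mice (x axis) for every tested member of 11 channel, receptor and peptide lists (rows). Filled points passed an adjusted p of 0.05, open points did not, and bars mark list medians. Of the 68 potassium channel points 34 are filled left of 0, peptide receptors reach 4.46 at Glp1r, and neuropeptides reach 8.48 at Pmch.

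Glutamate and GABA receptor genes changed in both directions. Among ionotropic glutamate receptors 6 of 17 tested were higher and 6 lower. Grin2a, an NMDA receptor subunit of mature cortex, was at 80.7, 95.4 and 121 CPM in PVT and 170.1, 204 and 250.5 CPM in pIC (log2 −1.12, SE 0.11, adjusted p = 7.06e-06), whereas Grin2d, a subunit typical of diencephalon, was at 15.7, 18.8 and 32.7 CPM in PVT and 9.84, 10.5 and 11.7 CPM in pIC (log2 1.03, SE 0.177, adjusted p = 4.30e-04). The obligatory subunit gene Grin1 was lower (log2 −0.56), Grin2b too (−0.71), and the AMPA receptor gene Gria1 higher (0.47). Of 7 metabotropic glutamate receptors 2 were higher, among them Grm4 (log2 0.65), and Grm8 was lower (−0.49), both with overlapping libraries. As shares these were 28.6% and 14.3%, against 26% and 23.1% over all genes tested. With PVT libraries 1, 2 and 3 left out, 2 of the 7 were lower. Among GABA and glycine receptors 7 of 20 tested were higher and 7 lower. Gabrq and Gabre, which encode the theta and epsilon subunits known from hypothalamus and brainstem, had log2 fold changes of 4.73 and 5.62 (adjusted p = 1.22e-05 and 2.18e-06). Gabre was at 2.63, 7.9 and 11.7 CPM in PVT and 0.0965, 0.164 and 0.169 CPM in pIC, with no overlap. Gabrg1 was also higher (log2 1.40, adjusted p = 3.29e-07), as was the glycine receptor gene Glra2 (log2 1.13, adjusted p = 5.06e-05).

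Peptide receptors were higher for 17 of 38 tested members of 40 listed and lower for 9 (median 0.42), and against a minimum fold of 2 there were 9 higher and 0 lower. Glp1r (ENSMUSG00000024027), the receptor for the incretin GLP-1, was at 14.4, 16.4 and 29.5 CPM in PVT and 0.145, 0.649 and 2.24 CPM in pIC (log2 4.46, SE 0.41, adjusted p = 6.18e-06). Avpr1a, a vasopressin receptor, was at 2.54, 3 and 6.51 CPM in PVT and 0.0829, 0.199 and 0.341 CPM in pIC (log2 4.13, SE 0.345, adjusted p = 1.95e-06). Mc3r, a melanocortin receptor of energy balance, was at 1.74, 2.37 and 3.56 CPM in PVT and 0.0829, 0.223 and 0.536 CPM in pIC (log2 3.30, adjusted p = 4.70e-06). All PVT libraries exceeded all pIC libraries for these 3 genes. Calcr, the calcitonin and amylin receptor, had one of the largest differences, at 3.43, 8.23 and 12 CPM in PVT and at 0 CPM in 5 of 6 pIC libraries, with 0.162 CPM in the other (adjusted p = 4.25e-06). On the pIC side, Cckbr, the brain cholecystokinin receptor, was at 7.97, 16.2 and 30.1 CPM in PVT and 33.5, 50.5 and 58.2 CPM in pIC (log2 −1.58, SE 0.288, adjusted p = 7.55e-04), and the somatostatin receptor gene Sstr2 was lower (log2 −0.87).

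Neuropeptide genes were higher for 11 of 27 tested members of 34 listed and lower for 9. Gal, galanin, was at 1.16, 8.77 and 15.2 CPM in PVT and 0.0552, 0.123 and 0.341 CPM in pIC (log2 5.74, SE 0.864, adjusted p = 1.96e-04). Cartpt, the feeding-related peptide CART, was at 14.2, 26.1 and 54 CPM in PVT and 3.5, 6.68 and 13.3 CPM in pIC (log2 1.93, SE 0.375, adjusted p = 0.00117). Pnoc, the precursor of nociceptin, was at 17.3, 21.4 and 23.4 CPM in PVT and 5.6, 6.68 and 8.28 CPM in pIC (log2 1.62, SE 0.105, adjusted p = 4.54e-07), with narrow ranges in both regions and no overlap. Npy and Vip, peptides of cortical interneurons, were lower, with log2 fold changes of −1.53 and −1.81 (adjusted p = 4.13e-04 and 0.00179).

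Receptors for monoamines and cannabinoids were higher for 8 of 28 tested and lower for 8, 28.6% each way. Those shares were near the 26% and 23.1% over all genes tested. Acetylcholine receptors were higher for 5 of 12 tested and lower for 3 (41.7% and 25%). Htr2c, a serotonin receptor of thalamus, striatum and choroid plexus, was at 79.1, 96.9 and 131 CPM in PVT and 14, 21.4 and 48.8 CPM in pIC (log2 1.84, SE 0.308, adjusted p = 4.23e-04). Htr7, another serotonin receptor of midline thalamus, was higher (log2 1.2, adjusted p = 8.87e-05). Htr2a, the cortical serotonin receptor on which psychedelics act, was lower, at 14.8, 27.4 and 36.3 CPM in PVT and 60.6, 74.4 and 91.6 CPM in pIC (log2 −1.52, SE 0.221, adjusted p = 1.43e-04). The cannabinoid receptor gene Cnr1 and the muscarinic receptor gene Chrm1 were lower too (log2 −0.60 and −1.15, adjusted p = 2.63e-04 and 6.67e-04). Chrm3 was also lower (log2 −0.90) and Chrm5, another muscarinic receptor, higher, at 0.764, 1.15 and 1.68 CPM in PVT and 0.0843, 0.145 and 0.243 CPM in pIC (log2 2.84, adjusted p = 9.33e-06).

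Genes of the cells that line the ventricles were higher in PVT. Choroid plexus makes cerebrospinal fluid, and ependymal cells move it with beating cilia built around dynein motors. Choroid plexus genes were higher in PVT for 21 of 22 members (median 4.84), 19 of them by more than 2-fold and 19 without overlap. Ttr (ENSMUSG00000061808), the thyroxine carrier transthyretin, was at 1213, 2793 and 3055 CPM in PVT and at 2.07, 3.95 and 117 CPM in pIC (log2 6.67, SE 1.12, adjusted p = 4.36e-04). The pIC value of 116.8 CPM belonged to library 3, and the other 5 pIC libraries were at 2.07 to 8.79 CPM. Otx2, the homeobox factor of choroid plexus, was at 8.76, 12.7 and 14.9 CPM in PVT and 0, 0.069 and 0.526 CPM in pIC (log2 6.22, SE 0.408, adjusted p = 5.74e-07). Prlr, the prolactin receptor, was at 19.2, 31.6 and 46 CPM in PVT and 0.463, 0.635 and 1.22 CPM in pIC (log2 5.48, SE 0.286, adjusted p = 2.86e-07). Slc4a5, a bicarbonate transporter that helps secrete cerebrospinal fluid, was at 7.01, 13.1 and 15.4 CPM in PVT and 0, 0.0244 and 0.405 CPM in pIC (log2 6.85, SE 0.5, adjusted p = 1.25e-06). F5, coagulation factor V, and Sostdc1, a BMP and Wnt antagonist, had log2 fold changes of 5.61 and 5.23.

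Of 31 ependymal and motile cilia genes 28 were tested, and 24 were higher with no overlap and none lower (median 2.56). Foxj1 (ENSMUSG00000034227), the forkhead factor that switches on motile cilia genes, was at 17.7, 23.5 and 26.5 CPM in PVT and 3.04, 4.04 and 6.4 CPM in pIC (log2 2.41, SE 0.176, adjusted p = 9.32e-07) and was picked after its value was seen. Rarres2, the adipokine chemerin, which had the smallest p of all genes, was at 12.6, 14.1 and 15.8 CPM in PVT and 2.27, 3.15 and 3.59 CPM in pIC (log2 2.19, SE 0.103, adjusted p = 1.18e-07). Dnah12, an axonemal dynein heavy chain, was at 1.93, 2.68 and 3.51 CPM in PVT and 0.0843, 0.204 and 0.332 CPM in pIC (log2 3.74, adjusted p = 6.72e-07). Rsph1, a radial spoke protein, was higher by 2.81 on the log2 scale. Tekt1, a tektin of the axoneme, was at 3.87, 4.88 and 6.64 CPM in PVT and 0.552, 0.79 and 0.965 CPM in pIC (log2 2.71, SE 0.184, adjusted p = 5.41e-07). Ciliary genes not counted in the list filled 4 of the 12 places of smallest p among the higher genes. They were Ttc21a (3.65), Ccdc40 (3.08), Drc7 (4.95) and Fam183b (2.82), all log2 fold changes. Fam183b is an older symbol of Cfap144, which was on the list but was not matched, so it is not a gene outside the list. The ependymal score ran from 2.21 to 2.64 over PVT libraries and from −0.27 to 0.62 over pIC libraries. Without PVT libraries 1, 2 and 3 the count was again 24 of 28 (median 2.63), and for choroid plexus it was 20 of 22 (median 4.83). Of the other higher genes with the smallest p, Ddo, which degrades D-aspartate, was at 11.8, 13.6 and 15.5 CPM in PVT and 3.2, 3.9 and 4.6 CPM in pIC (log2 1.80, adjusted p = 2.89e-07), and Fam107b had a log2 fold change of 1.15.

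Cilia genes are known targets of RFX factors, which bind an X-box made of 2 copies of a site that reads GTTGCC on 1 strand. Promoters of RefSeq (GRCm38.p6, 250 bases before to 50 after each start) were found for 25 of the 31 listed genes, and 14 of those genes (56%) held GTTGCC on either strand, against 14.14% of the 27025 genes in the table. The whole palindromic X-box, in the strictest form searched, was in none of the 25 and in 0.53% of all genes. Looser forms of it were found. The 2 forms with 1 more base left free were each in 3 of the 25 (12%), against 0.94% and 1.49% of all genes. The form with both of these bases free was in 5 (20%), against 2.49%. These differences in share were not tested. Counted by promoter, the shares of the single site were 14 of 31 and 12.51% of 32851. For 10 of the 14 the gene was higher in PVT, against 24 of 28 tested over the whole list. Ccno, Drc1, Mcidas and Rfx3 held the site and were not called. For the 10 higher genes, windows of 30 bases around the first match are given here on the gene's strand. The match is in capitals (GGCAAC is the same site read on the other strand). The log2 fold changes of these 10 genes ran from 1.15 for Tekt4 and 1.41 for Rfx2, itself an RFX factor, through 2.82 for Spef2 and 3.06 for Dynlrb2 to 4.53 for Ccdc153. These genes were picked for their letters after the values were seen. For Spef2, Tekt4 and Zmynd10 the match lies after the start. In all, 13 letter patterns were searched, and a match in these windows is a description of the letters only.
1700012B09Rik (chr9:14771091-14771120, minus strand): agcaggtaggctGTTGCCtgcacccagggc
Ccdc153 (chr9:44240513-44240542, plus strand): ctgagttttccaGTTGCCtggacaacgtgc
Cfap44 (chr16:44394658-44394687, plus strand): ggacgactctgtGGCAACacctcagtttag
Dynlrb2 (chr8:116504952-116504981, plus strand): acttcctgcctgGTTGCCtagcaacggggg
Hydin (chr8:110266952-110266981, plus strand): tgcggttgctgtGGCAACagatggtaacaa
Rfx2 (chr17:56831107-56831136, minus strand): agcttggtaaccGTTGCCgggcgcaacgcc
Spef2 (chr15:9748843-9748872, minus strand): ccttagcaactgGTTGCCctgggcgacggg
Tekt1 (chr11:72361900-72361929, minus strand): tcttctaactagGGCAACgttgcgtccgtc
Tekt4 (chr17:25471586-25471615, plus strand): caatgttccttaGGCAACcaggaaccttgc
Zmynd10 (chr9:107547324-107547353, plus strand): tcaagcgcttcaacggcttGGCAACtgccc

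For Tekt1 the 250 bases before that start (chr11:72361883-72362132, minus strand, inside the Tekt1 gene and outside annotated exons) hold the site on both strands within the last 35 bases.
Tekt1: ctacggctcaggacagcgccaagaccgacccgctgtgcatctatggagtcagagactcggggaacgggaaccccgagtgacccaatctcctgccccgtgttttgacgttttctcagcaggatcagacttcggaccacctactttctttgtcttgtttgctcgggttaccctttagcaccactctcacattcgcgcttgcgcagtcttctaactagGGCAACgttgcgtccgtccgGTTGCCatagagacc

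Genes of the oligodendrocyte lineage and most of the 17 genes on the general astrocyte list were higher in PVT. All 25 oligodendrocyte and myelin genes were higher (median 0.95, log2 range 0.74 to 1.10), 17 of them without overlap, and so were all 10 genes of their precursors (median 0.69). Cnp, a myelin enzyme, was at 351, 425 and 445 CPM in PVT and 163, 212 and 308 CPM in pIC (log2 0.92, SE 0.135, adjusted p = 1.23e-04), and its highest pIC library was library 3. In the comparison without PVT libraries 1, 2 and 3, 24 of 25 and 8 of 10 passed the test (medians 1.01 and 0.71). Olig1, a factor of the whole lineage, was higher by 0.77 and Neu4, a sialidase of precursors, by 0.83 on the log2 scale. Lhfpl3, a precursor gene, was higher by 1.48 on the log2 scale (adjusted p = 1.37e-04). Of 17 astrocyte genes 11 were higher and 1 lower (median 0.36). Gja1, the gap junction protein connexin 43, was at 239, 257 and 284 CPM in PVT and 164, 178 and 190.2 CPM in pIC, with no overlap (log2 0.54, SE 0.0513, adjusted p = 4.82e-06). Mlc1, a membrane protein of astrocyte endfeet, was higher (log2 0.57, SE 0.0531, adjusted p = 4.26e-06) and Slc1a2, the main glutamate transporter, lower (log2 −0.41, SE 0.0988, adjusted p = 0.00376), with overlapping libraries.

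Genes that mark astrocytes of the diencephalon were higher for all 6 tested of 8 listed, and those of the telencephalon for 1 of 6, with 2 lower (4 lower without PVT library 1 or without PVT library 3). Agt, angiotensinogen, was at 22.4, 71.7 and 230.5 CPM in PVT and 3.31, 4.84 and 11 CPM in pIC (log2 4.06, SE 0.614, adjusted p = 2.07e-04), and Gfap, the intermediate filament of astrocytes, at 160.5, 214 and 270.4 CPM in PVT and 74.1, 88.6 and 113 CPM in pIC (log2 1.25, SE 0.14, adjusted p = 2.00e-05). Neither overlapped. Itih3, a hyaluronan-binding protein, was at 30.7, 49.4 and 110.3 CPM in PVT and 12.1, 13 and 15.4 CPM in pIC (log2 2.19, adjusted p = 1.27e-04). Lfng, a Notch-modifying glycosyltransferase, was the telencephalic gene that was higher (log2 0.69, adjusted p = 4.10e-06). Lhx2, a factor of telencephalic astrocytes and neurons, was lower (log2 −0.64, adjusted p = 0.016). With those 3 PVT libraries left out, 8 of 8 tested diencephalic genes were higher (median 3.36). The smaller PVT group let more diencephalic genes pass the count filter, so the medians cover different sets of genes. Of 6 telencephalic genes 5 were then lower and 1 higher (median −0.99).

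Few immune and vascular genes passed the test. Of 16 microglial genes 1 was higher and 3 lower (median −0.07), and Csf1r, the receptor that keeps microglia alive, was at 71.2, 78.7 and 82.5 CPM in PVT and 83.4, 84.3 and 91.8 CPM in pIC (log2 −0.14, SE 0.0444, adjusted p = 0.0174). That call was lost under upper quartile scaling (adjusted p = 0.0789). Of 16 endothelial genes 2 were higher and 2 lower, of 11 mural genes 1 and 1, of 13 meningeal genes 3 and 1, and of 7 border macrophage and 5 red cell genes none passed the test. With PVT libraries 1, 2 and 3 left out, 3 meningeal genes were higher and 3 lower, 1 endothelial gene was higher, no mural gene was lower and 2 border macrophage genes were lower. Leaving out PVT library 1, 2 or 4 or pIC library 3 alone gave 1 to 2 lower border macrophage genes, and the replicate block gave 2 of these and 4 higher red cell genes. Sall1, which maintains microglial identity, was the microglial gene that was higher (log2 0.35, SE 0.0639, adjusted p = 5.38e-04). Mfsd2a, a lipid transporter of the blood-brain barrier, was higher (log2 0.25, SE 0.0723, adjusted p = 0.0112), but without PVT libraries 1, 2 and 3 the call was lost. Egfl7, a factor secreted by endothelium, was lower (log2 −0.49, SE 0.0875, adjusted p = 4.86e-04), and Igf2, a growth factor of meninges and choroid plexus, higher (log2 1.27, SE 0.193, adjusted p = 1.89e-04). Dcn, the fibroblast proteoglycan decorin, was at 12.6, 15.2 and 16.9 CPM in PVT and 8.51, 9.36 and 12.3 CPM in pIC (log2 0.60, adjusted p = 3.52e-04).

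**Figure D4:**
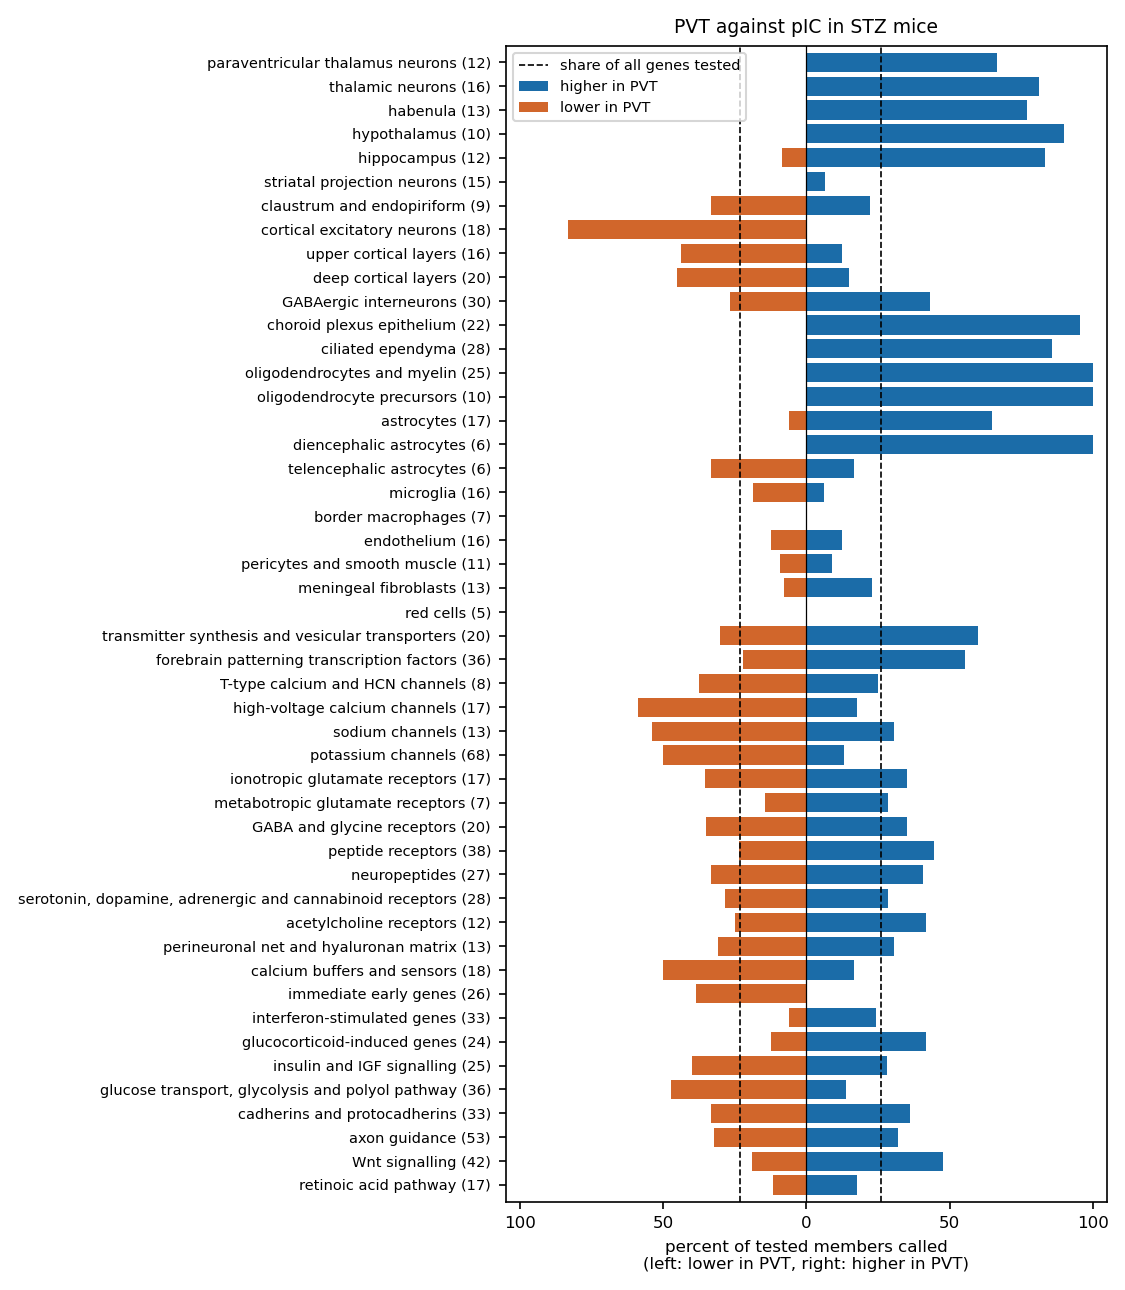
Percent of the tested members of each list (number in brackets) that were higher (right) or lower (left) in PVT of STZ mice. Dashed lines give the shares over all genes tested, 26% and 23.1%. Bars of the oligodendrocyte, precursor and diencephalic astrocyte lists reach 100% on the right, and that of cortical excitatory neurons is the longest on the left.

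Activity-dependent genes were lower in PVT or not called. Immediate early genes are transcribed within minutes of synaptic activity and calcium entry. Of 26 none was higher and 10 were lower (median −0.52). Nptx2, a secreted pentraxin of excitatory synapses, was at 39.8, 50.5 and 58.3 CPM in PVT and 72, 88.4 and 106 CPM in pIC (log2 −0.85, SE 0.111, adjusted p = 5.12e-05). Bdnf, brain-derived neurotrophic factor, was at 14.5, 27.2 and 33.8 CPM in PVT and 40.5, 47 and 55.9 CPM in pIC (log2 −0.91, SE 0.178, adjusted p = 0.00108). Dusp6, a phosphatase induced by MAP kinase signalling, was at 31.1, 42 and 64 CPM in PVT and 81, 91.8 and 110.1 CPM in pIC (log2 −1.07, SE 0.153, adjusted p = 1.12e-04). Egr1, a zinc-finger factor named after its values were seen, was at 203.8, 278, 248, 160.0, 73.7 and 82.2 CPM in PVT libraries 1 to 6 and at 322, 375 and 531 CPM in pIC (log2 −1.19, SE 0.311, adjusted p = 0.00752). PVT libraries 5 and 6, the highest in thalamic genes, were the lowest in Egr1. Without PVT libraries 1, 2 and 3, 19 of 26 were lower (median −0.88), and in control mice 20 were lower (median −1.09).

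The cyclic AMP response element TGACGTCA, which CREB binds, begins with TGACGT. RefSeq promoters were found for 21 of the 26 genes, and 11 of the 21 (52.38%) held TGACGT on either strand, against 8.37% of all genes, while the whole element was in 2 (9.52%) against 2.03%. Of the 11, 3 were lower in PVT, against 10 of 26 on the whole list and 23.1% of all genes tested. A link between the letters and the regional difference was not tested. The 3 were Bdnf, Dusp5 and Homer1, which encodes a postsynaptic scaffold with an activity-induced short form (log2 −1.27, SE 0.335, adjusted p = 0.00762, named after its values were seen). The 250 bases before 1 of the 7 starts listed for Bdnf (chr2:109692186-109692435, plus strand) hold the letters 36 bases before the start, and those of Homer1 (chr13:93303507-93303756, plus strand) hold them 3 times within the last 56 bases. Capitals mark the matches (ACGTCA is the same site on the other strand), and both windows lie outside annotated exons.
Bdnf: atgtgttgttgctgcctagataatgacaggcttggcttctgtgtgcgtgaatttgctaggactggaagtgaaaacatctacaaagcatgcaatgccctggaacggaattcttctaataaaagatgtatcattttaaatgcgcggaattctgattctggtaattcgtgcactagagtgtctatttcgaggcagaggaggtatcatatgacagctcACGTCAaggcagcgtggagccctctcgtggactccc
Homer1: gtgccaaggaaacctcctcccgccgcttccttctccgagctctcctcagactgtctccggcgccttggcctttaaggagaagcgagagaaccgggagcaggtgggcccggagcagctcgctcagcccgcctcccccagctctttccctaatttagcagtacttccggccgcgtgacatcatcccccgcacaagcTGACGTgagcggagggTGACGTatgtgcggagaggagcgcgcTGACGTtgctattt

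Metabolic and hormone-response genes differed in both directions. Among glucose transport, glycolysis and polyol genes 17 of 36 tested were lower and 5 higher. Slc2a12, a glucose transporter, was at 11.5, 22.5 and 27.4 CPM in PVT and 2.14, 2.67 and 3 CPM in pIC (log2 3.01, SE 0.202, adjusted p = 6.16e-07), and Pfkp, a phosphofructokinase, was at 193, 219.5 and 244 CPM in PVT and 295, 302 and 313 CPM in pIC (log2 −0.47, SE 0.0602, adjusted p = 4.21e-05). Ldha, lactate dehydrogenase A, was lower too (log2 −0.66, SE 0.104, adjusted p = 2.01e-04). Of 25 tested insulin and IGF signalling genes 7 were higher and 10 lower (28% and 40%, against 26% and 23.1% over all genes tested). Irs4 (ENSMUSG00000054667), an insulin receptor substrate of hypothalamus and thalamus, was at 7.79, 27.8 and 38.8 CPM in PVT and 0.166, 0.272 and 0.526 CPM in pIC (log2 6.22, SE 0.538, adjusted p = 4.65e-06), Grb10, an adaptor that restrains insulin signalling, was higher (log2 1.69) and Pik3r1, the regulatory subunit of PI3 kinase, lower (log2 −0.63). Igfbp6, which binds IGF2, was at 3.44, 14.2 and 33.1 CPM in PVT and 40.6, 63.3 and 69.1 CPM in pIC (log2 −2.04, SE 0.444, adjusted p = 0.00241). Irs4 was 7.79 CPM in PVT library 1 and 36.1 to 38.8 CPM in libraries 4, 5 and 6.

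Of 33 tested interferon-stimulated genes 8 were higher (5 without PVT libraries 1, 2 and 3) and 2 lower (1 without pIC library 6), against shares of 26% and 23.1% over all genes. Stat2, a transducer of interferon signals, was lower (log2 −0.30, adjusted p = 2.86e-04). Lgals3bp, a secreted glycoprotein, was at 18.2, 21.5 and 23.5 CPM in PVT and 10.3, 11.4 and 11.5 CPM in pIC (log2 0.92, SE 0.0655, adjusted p = 6.72e-07). Of 24 glucocorticoid-induced genes 10 were higher and 3 lower (5 lower without pIC library 6). Sgk1, a kinase induced by corticosteroids, was at 176, 225 and 273 CPM in PVT and 116, 129 and 176 CPM in pIC (log2 0.75, SE 0.119, adjusted p = 2.19e-04), and its lowest PVT library (175.7 CPM) lay just above its highest pIC library, library 3 (175.6 CPM). Klf9, a glucocorticoid-induced zinc-finger factor, was lower (log2 −0.60, adjusted p = 8.01e-04), and Nr3c1, the glucocorticoid receptor itself, was lower (log2 −0.36, SE 0.0579, adjusted p = 2.43e-04).

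Adhesion and guidance genes were divided nearly evenly, with 12 of 33 cadherin genes higher and 11 lower and 17 of 53 guidance genes in each direction. Robo2, a Slit receptor, was lower, at 46.1, 58.5 and 68.6 CPM in PVT and 114, 121 and 123 CPM in pIC (log2 −1.06, SE 0.0895, adjusted p = 2.05e-06), and Nrp2, a semaphorin receptor, higher (log2 1.54, SE 0.207, adjusted p = 8.06e-05). Cdh3, P-cadherin, was at 0.854, 1.78 and 2.5 CPM in PVT and 0.11, 0.226 and 0.243 CPM in pIC (log2 3.01, adjusted p = 1.45e-05), and Celsr2, a cadherin of planar polarity, was lower (log2 −0.58, adjusted p = 8.94e-06). Wnt signalling genes were higher for 20 of 42 tested and lower for 8. Fzd7, a Wnt receptor, was at 12.6, 15 and 17.7 CPM in PVT and 5.24, 5.87 and 6.4 CPM in pIC (log2 1.39, SE 0.087, adjusted p = 4.10e-07), Sfrp5, a secreted Wnt antagonist, was higher (log2 3.16) and Rspo2, which boosts Wnt signals, lower (log2 −1.92). Calcium buffers and sensors were lower for 9 of 18 tested and higher for 3, with Hpcal1, a visinin-like sensor, at a log2 fold change of 1.18 (adjusted p = 2.67e-05). Of 13 tested genes of perineuronal nets, the matrix around fast-spiking neurons, 4 were higher and 4 lower, among them Hapln2, a link protein of nodes of Ranvier (log2 0.98, adjusted p = 0.0013), and Ncan, neurocan (log2 −0.64, adjusted p = 0.00182). Of 17 retinoic acid genes 3 were higher and 2 lower (4 lower without pIC library 3, and also without PVT libraries 1, 2 and 3). Those main shares, 17.6% and 11.8%, were below the 26% and 23.1% over all genes tested. Rdh10, which makes retinal, was at 0.61 and Rbp4, a retinol carrier, at −0.86 on the log2 scale (adjusted p = 1.33e-04 and 0.0133).

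The same comparison in vehicle-treated mice used 8 other libraries. It gave 4231 higher (25.5%) and 3717 lower (22.4%) of 16614 genes tested. Of the 8055 genes called in STZ mice and tested in both, 6590 (81.8%) were called in the same direction in control mice, which is 84.6% of the control calls, and 0 in the opposite direction. Regional differences in the 2 sets correlated across genes with a Pearson r of 0.956 and a Spearman rho of 0.919 over 16287 genes, which are not independent replicates. Differences were larger in control mice for 2801 (80.9%) of the 3461 genes higher in both and for 2745 (87.7%) of the 3129 genes lower in both. The median log2 fold changes were 0.65 in STZ and 0.79 in control mice for the higher genes, and −0.43 and −0.54 for the lower genes. These genes entered only if called in both sets, from 4 libraries per region in control and 6 in STZ mice. How far the number of libraries bears on these sizes was not tested. Of the 224 genes higher in both with an STZ fold of 8 or more, 199 (88.8%) had the larger difference in control mice. Their median log2 fold changes were 3.99 in STZ and 5.08 in control mice. Punch content was not scored in the control libraries, and the difference in size over these genes as a set was not tested.

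A test of the difference between the 2 regional differences (region by treatment interaction, 20 libraries, 17427 genes) called 0 genes (0%) in edgeR. At an unadjusted p under 0.05 there were 701 (4.02%), and the lowest adjusted p was 0.0679. The number at an unadjusted p under 0.05 ran from 495 without PVT library 4 of control mice to 1227 without PVT library 2 of control mice. DESeq2 called 4, namely Rarres2, Lbp, Tekt4 and 2410004P03Rik, each with a smaller PVT excess in STZ mice. With pIC library 1 of STZ mice left out edgeR called Rarres2, and with PVT library 2 of control mice left out it called Rarres2, Tekt4 and 2410004P03Rik. Lbp, which binds bacterial lipopolysaccharide, was at 11.8, 18.8 and 20.7 CPM in PVT and 1.16, 2.04 and 2.23 CPM in pIC of STZ mice, log2 fold changes of 3.16 in STZ and 4.90 in control mice. The values for Rarres2 were 2.19 and 3.22, for Tekt4 1.15 and 2.87, and for Dnah3, an axonemal dynein, 3.41 and 6.69. Of the opposite sign, Fstl4, a follistatin-like protein, had −0.73 in STZ and −1.41 in control mice, and Cdk5r1, the activator of the kinase CDK5, −0.36 and −0.73. Srxn1, sulfiredoxin, with 0.09 and −0.25, and Map3k14, a kinase of NF-kB signalling, with 0.30 and −0.49, were not called between the regions in STZ mice (adjusted p = 0.233 and 0.0899). Choroid plexus genes had a median log2 fold change of 4.84 in STZ and 6.06 in control mice, and ependymal genes 2.56 and 3.29, differences that were not tested as lists.

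**Figure D5:**
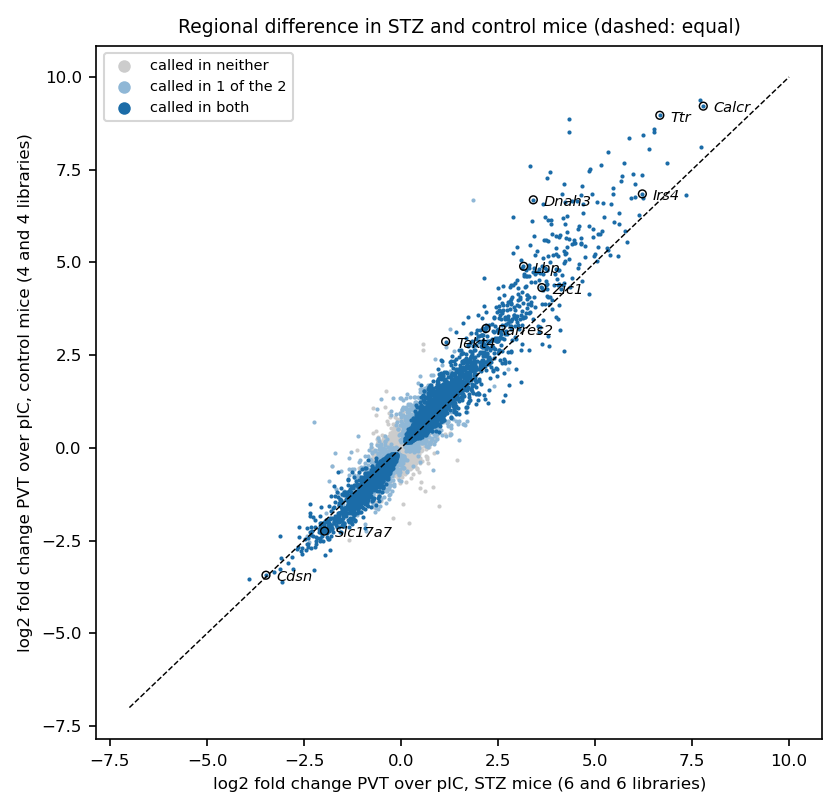
Log2 fold change of PVT over pIC in STZ mice (x axis, 6 and 6 libraries) and in control mice (y axis, 4 and 4 libraries) for 16287 genes, coloured by whether they passed an adjusted p of 0.05, with the line of equal values dashed. Called genes lie along the line in both directions, and those far from 0 lie mostly on the side of larger differences in control mice, Dnah3 and Ttr among them.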

How the data were processed

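RNA was measured in 20 libraries, and the deposited table gives whole-number read counts per gene, not normalized. The genome build named is GRCm39, per the submitters' processing notes; no source used here names the aligner or counter. Groups came from the labels. Of 57180 identifiers 51884 were matched to a symbol, and 26767 had no count in the 12 STZ libraries. Regions were compared with edgeR 4.0.16 (R 4.3.3; filterByExpr with a minimum count of 10 and total of 15, TMM scaling, robust quasi-likelihood F-test, Benjamini-Hochberg adjustment over all genes tested, threshold 0.05; glmTreat for a minimum fold of 2). Level sentences give CPM per library, which are not per length, so levels are not compared between genes. On simulated data for the STZ comparison, 64.4%, 82.6% and 95.8% of genes changed 1.5-, 2- and 4-fold were recovered (16342 genes), and for the interaction 40%, 73.9% and 89.6% (17172 genes). In the simulated STZ comparison only 59, 69 and 71 genes were changed at these folds, whereas 8089 genes were called in the data. Varying punch content was not simulated, so the rates hold for that simpler setting.

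The 49 gene lists (954 genes, 950 in the table) and the genes named were chosen with earlier results of these data known. Named by rule were called genes with a mean of at least 1 CPM in the higher region: the 12 of smallest p and the 6 of largest fold in each direction, up to 4 per list and direction, and the 4 of smallest interaction p of each sign; some of them are not reported here. Alternatives were other scaling (RLE, upper quartile), other filters, DESeq2 1.42.0, limma 3.58.1 (voom with quality weights), a replicate block, 1 fit to the whole set of 20 libraries, and omission of each library in turn. Leaving out PVT libraries 1, 2 and 3, alone or with pIC library 3, was added after seeing the data. Promoter letters came from RefSeq (GRCm38.p6), a build other than that of the counts, and were joined by gene symbol only; exons were those of GENCODE.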

Additional observations from a re-analysis of the deposited data

Results flagged for a closer look

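In 30 of 464 groups of 6 libraries (6.47%), taken over the named genes and list scores, 1 library stood apart from the other 5 by more than 0.625 of the group's range, Dixon's limit, which chance passes in about 1 of 20 groups. Library 3 of pIC accounted for 14 of them and library 4 of pIC for 9.

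In pIC library 3, the one with the highest striatal score, the choroid plexus score was 1.3 against −0.03 to 0.34 in the other 5. Ttr stood at 116.8 CPM (2.07 to 8.79 in the others), Slc4a5 at 0.405 CPM, Sostdc1 at 1.17 CPM (0.11 to 0.337), Otx2 at 0.526 CPM and Calcr at 0.162 CPM, with the others of Calcr at 0. Genes of thalamus and habenula were also highest there, with Tcf7l2 at 4.37 CPM (2.78 to 3.29), Gbx2 at 1.25 CPM and Slc18a3 at 4.9 CPM (0.338 to 1.51). Grm4 was at 39.4 CPM (23.2 to 29), Hapln2 at 21.8 CPM (10.2 to 13.7) and Sgk1 at 175.6 CPM (116 to 136). The genes that were lowest there were Cckbr at 33.5 CPM (49.3 to 58.2) and Grm8 at 13.9 CPM (19.7 to 22.5).

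In pIC library 4, Zic1 was at 33.1 CPM (9.57 to 15.2 in the others), Calb2 at 22.1 CPM (7.56 to 11.3), Magel2 at 1.9 CPM (0.332 to 0.648) and Gal at 0.341 CPM (0.0552 to 0.126). Lhx5 and Lhx1 had 0.0487 CPM each, the only count of either gene in pIC. Its scores were 6.39 for ionotropic glutamate receptors (6.27 to 6.3), 5.96 for GABA and glycine receptors (5.82 to 5.86) and 4.63 for cadherins (4.44 to 4.5).

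The other cases were single. Rasl10a stood at 32.7 CPM in pIC library 1 (23.5 to 25.9), Gabre at 0.0965 CPM in the same library, Myl4 at 66.6 CPM (12.9 to 26.3) and Itih3 at 15.4 CPM (12.1 to 13.2) in pIC library 5, and Lbp at 1.16 CPM (1.91 to 2.23) in pIC library 6. The score of pericytes and smooth muscle was 3.39 in pIC library 2 (3.51 to 3.54), and that of perineuronal nets 4 in PVT library 6 (4.12 to 4.18).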

How the results depend on the processing

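Of 183 genes chosen for naming 181 were called, 178 of them passed the threshold in every alternative that tested them and none reversed. The others were Pmch (voom adjusted p = 0.218), Csf1r and Mfsd2a. Most of the 183 genes were picked by p or fold from these same libraries, so staying past the threshold is not further evidence. Upper quartile scaling moved the median log2 fold change of all genes from 0.0225 to 0.0695 and gave 4992 higher and 3163 lower genes. The count of lower genes past 2-fold, 83, was 31 at an adjusted p under 0.01, 201 without PVT libraries 1, 2 and 3, 240 also without pIC library 3, and 55 to 163 with 1 library left out. Interaction calls numbered 0 to 3 with 1 library left out and 4 by DESeq2.

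List medians that changed sign without PVT libraries 1, 2 and 3 were those of striatal neurons (−0.76), meningeal fibroblasts (−0.26), T-type and HCN channels (0.13), ionotropic (0.07) and metabotropic (0.04) glutamate receptors, perineuronal nets (−0.11), insulin signalling (−0.04), cadherins (0.17) and retinoic acid genes (−0.35). Also without pIC library 3, meningeal fibroblasts were at −0.31, T-type and HCN channels were at 0.15, ionotropic receptors at 0.05, perineuronal nets at −0.04 and cadherins at 0.18. Axon guidance was at 0.03 under upper quartile scaling, and acetylcholine receptors at −0.23 with the block, −0.32 by voom and −0.22 (without PVT library 5) to 0.21 (without PVT library 1) with 1 library left out. The cause of these changes was not tested.

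With the replicate number as a block the counts were 4260 higher, 3812 lower, and 473 and 53 past 2-fold. Same-numbered STZ libraries correlated in their deviations from group means at −0.07 to 0.27, over 0.1 for 3 of 6 numbers. Of 6 PVT libraries 4 correlated best with their own number. As not every pair was over 0.1, the limit set, the main test did not treat the numbers as pairs. That limit cannot exclude that equal numbers come from the same mouse. Genes of few counts are limited by depth, as the intervals of Lhx5, Lhx1 and Pkp1 show.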
